A study of Mus musculus with 18 samples.

Results

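A set of 8 genes that bind or move calcium was followed across 18 RNA-seq libraries of the neonatal mouse cochlea and of cochlear cultures: the mobile buffers Calb1, Calb2 and Pvalb, the S100 genes S100a1 and S100b, and the calcium pumps Atp2b1, Atp2b2 and Atp2a3. They were taken by name as 8 of 47729 gene rows, and all 8 passed the filter on low values, a TPM of 1 or more in 2 or more libraries. TPM is a level corrected for transcript length and for the total of the library, so genes can be compared per length.

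The libraries fall into 9 groups of 2. The 3 native groups are cells sorted from the sensory epithelium at postnatal day 2 (P2) and are called here the Atoh1, Lgr5 and Sox2 sorts after the gene in each title. Atoh1 marks hair cells, and Lgr5 and Sox2 mark supporting cells. The other 6 groups are primary cochlear organoids titled LCP, an abbreviation that the labels do not spell out. Sorted LCP cells were sampled at differentiation day 0 (D0) and day 10 (D10), and unsorted LCP cultures at D0, D2, D4 and D10. The series design describes expansion followed by differentiation and names 2 sets of comparisons, native hair cells against native supporting cells and LCP samples between times. The sources used here do not give strain, reporter alleles, the sort criterion of the LCP cells or the culture agents. The protocol text common to the labels describes tamoxifen given to Sox2-CreER pups with a beta-catenin exon 3 allele and their littermates, but no title names such a group. It also says that each sample came from both ears of 1 pup and that hair and supporting cells were separated from mesenchyme and neurons. Whether that holds for the cultures, and whether the 2 replicates of a culture are separate cultures, is not stated, so p-values measure only the spread between these samples. In bulk RNA, fewer cells of a type and less RNA per cell cannot be told apart.

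Calcium enters hair cells through transduction channels at the bundle and through voltage-gated channels at the synapse. Mobile EF-hand proteins bind it within the cell: calbindin D28k (Calb1), calretinin (Calb2) and parvalbumin alpha (Pvalb). S100 proteins are small dimeric EF-hand proteins that act mainly as calcium sensors. Plasma membrane calcium ATPases carry the ion out of the cell, and PMCA2 (Atp2b2) is the hair bundle isoform whose loss causes deafness in mice, while PMCA1 (Atp2b1) is widely expressed. SERCA3 (Atp2a3) pumps calcium into the endoplasmic reticulum.

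In GENCODE on GRCm38, Calb1 lies on chromosome 4 (15881264 to 15908064, plus strand), Calb2 on chromosome 8 (110137502 to 110168210, minus) and Pvalb on chromosome 15 (78191114 to 78206400, minus). S100a1 lies on chromosome 3 (90511034 to 90514392, minus) and S100b on chromosome 10 (76253853 to 76261159, plus). Atp2b1 lies on chromosome 10 (98914406 to 99026143, plus), Atp2b2 on chromosome 6 (113743831 to 114042613, minus) and Atp2a3 on chromosome 11 (72961169 to 72993044, plus). No exon of a member overlapped an exon of another gene. RefSeq start-site windows (build GRCm38.p6, 250 bases before to 50 after the start) were matched for 6 of the 8 genes. The windows of Pvalb, Atp2b2 and S100a1 are shown because these are the members with a window that were higher at D10 than at D0 in both the sorted and the unsorted cultures. Pvalb has an upstream and a downstream start site. Capitals mark CANNTG, the E-box core that basic helix-loop-helix factors such as ATOH1 bind.
Pvalb, upstream start, chr15:78206351-78206650, minus strand: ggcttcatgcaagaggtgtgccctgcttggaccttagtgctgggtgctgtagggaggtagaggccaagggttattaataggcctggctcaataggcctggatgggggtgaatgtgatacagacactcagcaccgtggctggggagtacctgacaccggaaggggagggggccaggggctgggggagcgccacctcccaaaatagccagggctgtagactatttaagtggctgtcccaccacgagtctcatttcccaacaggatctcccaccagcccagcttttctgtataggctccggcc
Pvalb, downstream start, chr15:78204188-78204487, minus strand: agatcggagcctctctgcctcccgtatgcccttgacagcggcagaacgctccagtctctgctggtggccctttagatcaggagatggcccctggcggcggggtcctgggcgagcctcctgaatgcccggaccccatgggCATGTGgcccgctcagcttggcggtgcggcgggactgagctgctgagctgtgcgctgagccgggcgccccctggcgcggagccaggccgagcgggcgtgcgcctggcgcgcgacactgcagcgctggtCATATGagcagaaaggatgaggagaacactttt
Atp2b2, first listed start, chr6:114042031-114042330, minus strand: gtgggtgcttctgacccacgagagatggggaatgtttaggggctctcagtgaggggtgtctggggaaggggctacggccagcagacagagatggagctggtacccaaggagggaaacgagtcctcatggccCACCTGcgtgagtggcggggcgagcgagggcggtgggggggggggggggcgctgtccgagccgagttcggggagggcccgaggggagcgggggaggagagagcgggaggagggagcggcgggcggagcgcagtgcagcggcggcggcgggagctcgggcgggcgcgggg
In the S100a1 window, capitals mark the 42 bases between the GENCODE starts of S100a1 and of its neighbour S100a13, which is transcribed the other way. The RefSeq start on which this window is built lies further into S100a1, after the capitals.
S100a1, chr3:90514281-90514580, minus strand: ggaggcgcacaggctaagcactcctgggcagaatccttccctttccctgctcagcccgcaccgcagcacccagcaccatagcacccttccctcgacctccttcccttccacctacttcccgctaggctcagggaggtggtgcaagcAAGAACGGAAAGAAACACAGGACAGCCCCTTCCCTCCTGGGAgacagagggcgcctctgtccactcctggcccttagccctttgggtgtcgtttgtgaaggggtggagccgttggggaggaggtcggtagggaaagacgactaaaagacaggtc
Both strands were searched for CANNTG, which was found at 0 places in the upstream Pvalb window, 2 in the downstream one, 1 in the printed window of Atp2b2 and 0 in that of S100a1. The other windows of Atp2b2, not printed, held it at 2 and 0 places. Of 32851 such windows, 72.3% held it. The TATA box letters TATAAA, also searched on both strands, were in 13.6% of all windows and in none of a member.

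The sorts were set against 10 lists of cell type markers. The 10 hair cell markers summed to 1580 and 2178 TPM in the Atoh1 sort and to 2202 and 1684 in sorted LCP D10, against 33.3 and 28.3 in sorted LCP D0. The Lgr5 sort also held 682 and 1079 TPM of them and the Sox2 sort 986 and 1150, so both supporting cell sorts carried hair cell transcripts. The 10 supporting cell markers summed to 1056 and 473 TPM in the Atoh1 sort, while the Lgr5 sort held 3557 and 658, the Sox2 sort 1145 and 436 and sorted LCP D10 155 and 214. The Atoh1 sort carried supporting cell transcripts, and their part in its differences from sorted LCP D10 was not tested. Across libraries, 14381 to 16713 genes reached 1 TPM, mitochondrial genes held 4.27 to 12.7% of TPM, and replicates correlated at r = 0.903 to 0.945 across genes. By the sequencing dates in the labels, all replicates 2 share 1 date and replicates 1 share another, except that replicates 1 of LCP D0, D2 and D4 have a date of their own.

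**Figure D1:**
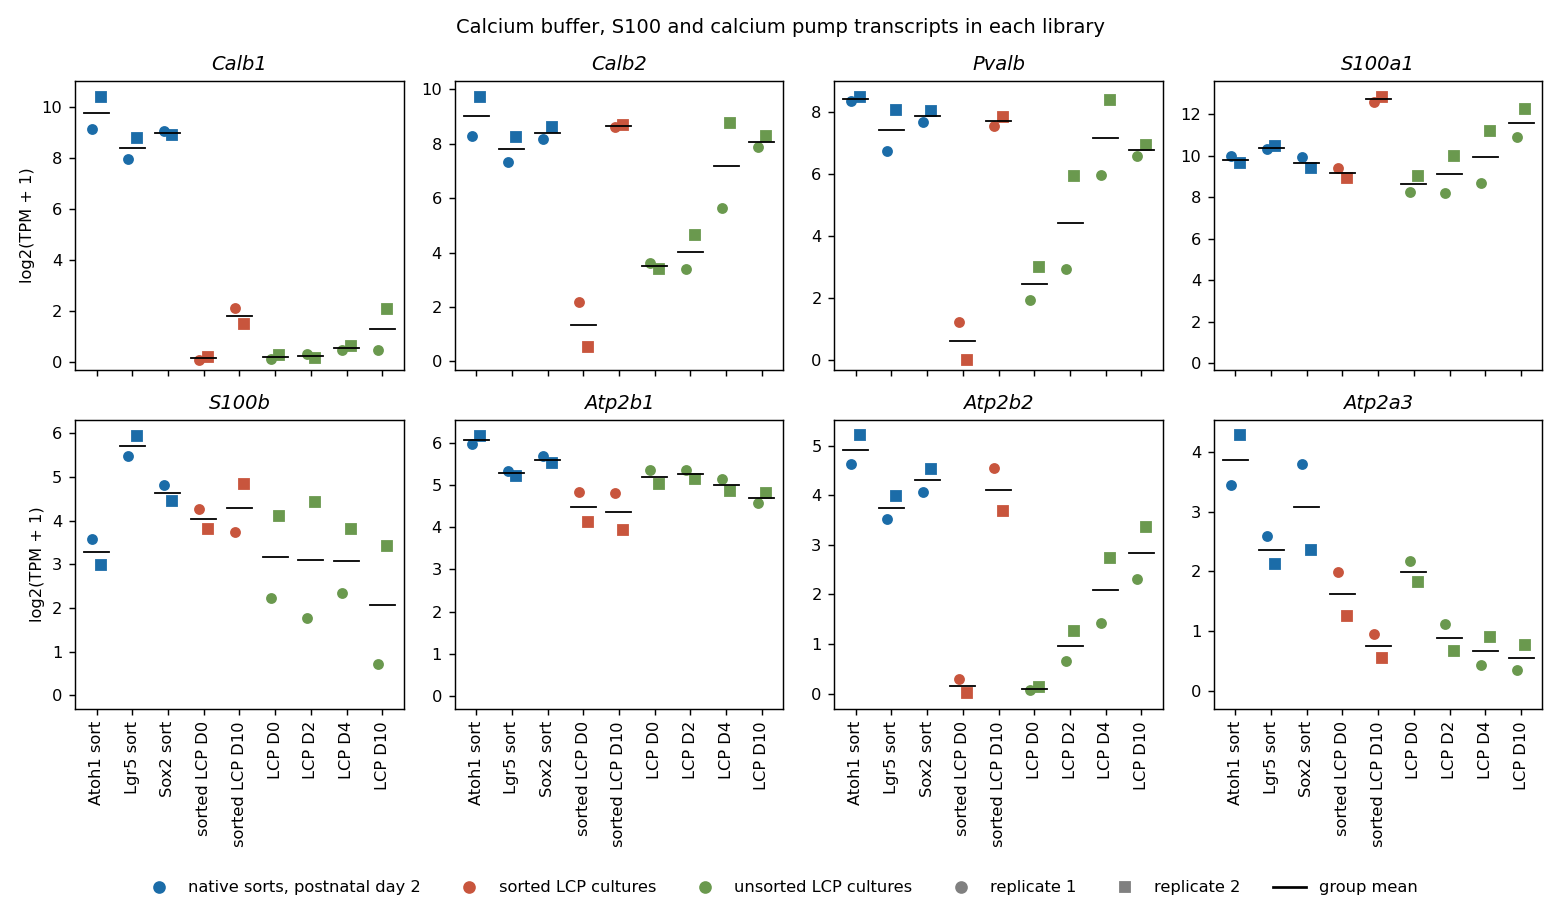
Level as log2(TPM + 1) of the 8 genes, 1 panel per gene, with the 9 groups along the x axis, 1 point per library (circles replicate 1, squares replicate 2) and a line at the mean of each group. Calb1 sits between 249 and 1340 TPM in the native sorts and at 3.39 TPM or less in every culture library, while S100a1 is highest in sorted LCP D10.

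Calb1 separated the native cells from every culture. Its level was 556 and 1340 TPM in the Atoh1 sort, while the Sox2 sort held 529 and 481 and the Lgr5 sort 249 and 440. In sorted LCP D10 it was 3.39 and 1.78 TPM, in sorted LCP D0 0.0648 and 0.158. The lowest native library held 249 TPM and the highest of the 12 culture libraries 3.39. Mean levels were 948 ± 555 TPM in the Atoh1 sort and 2.58 ± 1.14 in sorted LCP D10 (SD, n = 2 each), a ratio of 367. On the log2(TPM + 1) scale, on which all differences and tests below stand, sorted LCP D10 was lower (-7.95, SE 0.52, limma, Benjamini-Hochberg adjusted p = 6.27e-06). The difference was -6.99 between the libraries of the first sequencing date and -8.92 between those of the second.

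Calb2 and Pvalb came within the range of the native sorts in sorted LCP D10. Calb2 was 391 and 415 TPM in sorted LCP D10, between the Atoh1 sort values of 314 and 844. Sorted LCP D0 held 3.52 and 0.435 TPM, so the day 0 and day 10 groups do not overlap. Pvalb was 185 and 227 TPM in sorted LCP D10, 326 and 355 in the Atoh1 sort and 1.35 in sorted LCP D0 replicate 1, and it was listed at 0 in replicate 2. Both day 10 values of Pvalb lie below both of the Atoh1 sort. They lie within the values of the Lgr5 sort, 107 and 268 TPM. Against the Atoh1 sort, Calb2 differed by -0.35 (SE 0.87, adjusted p = 0.854) with a 95% interval of -2.26 to 1.55. Pvalb differed by -0.73 (SE 0.93, adjusted p = 0.673) with an interval of -2.75 to 1.29. These intervals are wide and do not show equal levels. They use 1 spread shared by all 18 libraries. For Pvalb the SD of log2(TPM + 1) was 0.21 in sorted LCP D10 and 0.087 in the Atoh1 sort but 2.13 in LCP D2 (n = 2 each). In a limma fit on the 4 compared libraries alone, adjusted p was 0.705 for Calb2 and 0.0955 for Pvalb. The Calb2 difference was 0.31 within the first date and -1.02 within the second.

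The buffer pool had a different make-up, computed as the share of the summed TPM of Calb1, Calb2 and Pvalb. Calb1 held 42.7 to 52.8% of it in the 6 native libraries and 0.585 and 0.276% in sorted LCP D10. There Calb2 held 67.4 and 64.4% and Pvalb 32.0 and 35.3%. The sum was 579 and 644 TPM in sorted LCP D10 and 1196 and 2540 TPM in the Atoh1 sort, with no overlap.

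**Figure D2:**
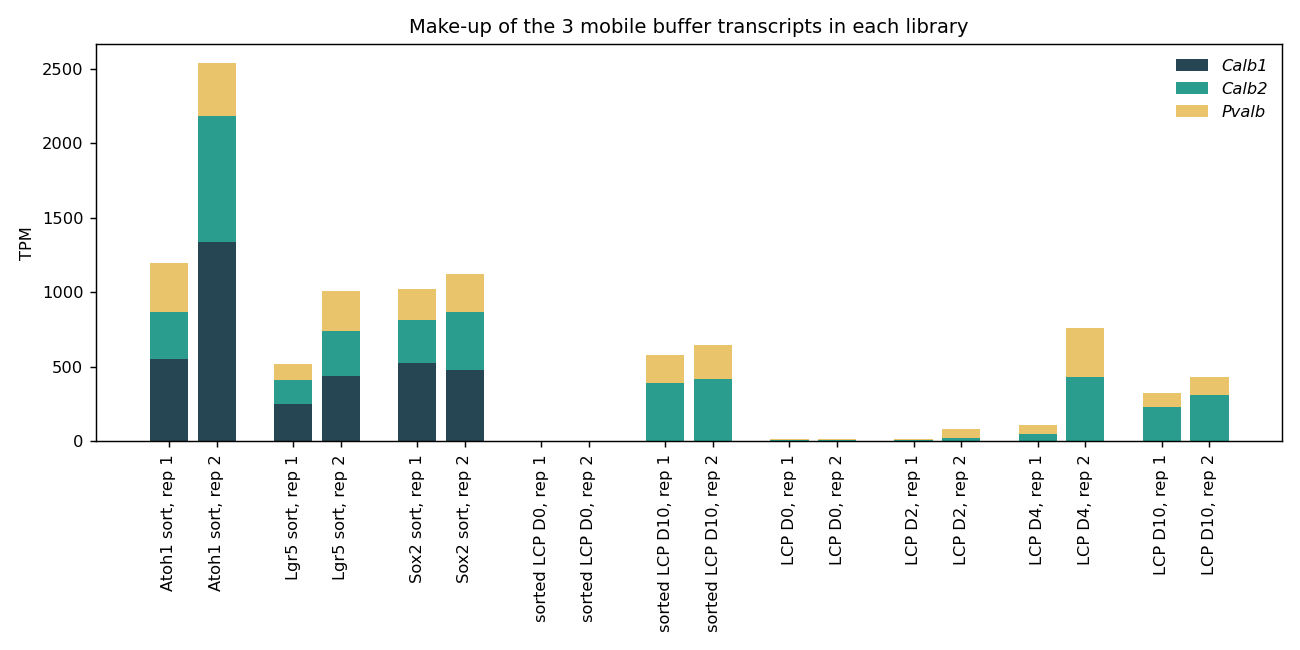
Stacked bars of the TPM of Calb1, Calb2 and Pvalb on the y axis, 1 bar for each of the 18 libraries. Calb1 makes up 42.7 to 52.8% of the bar in the native libraries and is not visible in both libraries of sorted LCP D10.

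S100a1 had the highest TPM of the 8 genes in 17 of the 18 libraries, and its own level was highest in sorted LCP D10. It was 6313 and 7335 TPM there, or 0.631 and 0.733% of all TPM. The Atoh1 sort held 1035 and 796 TPM and sorted LCP D0 674 and 487, both below the lowest of the sorted LCP D10 libraries. S100a1 was 2.90 higher than in the Atoh1 sort (SE 0.74, adjusted p = 0.0262), a ratio of 7.45 between mean TPM. The difference was 2.61 within the first sequencing date and 3.20 within the second. The call was lost in each of the 4 fits without 1 of these libraries (2.72 to 3.09, adjusted p 0.0887 to 0.136).

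S100b, in the cochlea known from supporting cells and glia, was the lower of both S100 genes in every library. It was highest in the Lgr5 sort, at 43.5 and 60.6 TPM, above both libraries of every other group. In sorted LCP D10 it was 12.4 and 27.5 TPM, and in the Atoh1 sort 10.8 and 6.95. The difference of 1.01 did not pass the test (SE 0.99, adjusted p = 0.564, interval -1.14 to 3.16). S100a1 exceeded S100b by 95.4 and 115 times in the Atoh1 sort, 29.5 and 23.2 times in the Lgr5 sort and 509 and 267 times in sorted LCP D10. The 8 glial markers summed to 604 and 367 TPM in the Lgr5 sort, and the Sox2 sort held 810 and 1265. The Atoh1 sort held 366 and 257 TPM of them and sorted LCP D10 149 and 176, where Foxd3 was listed at 0. The part of these and of the supporting cell markers given above in the S100b levels was not tested.

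Of the pumps, Atp2b2 in sorted LCP D10 was near the levels of the Lgr5 sort (10.4 and 14.8 TPM) and the Sox2 sort (15.8 and 22.2). Atp2b1 and Atp2a3 were called lower than in the Atoh1 sort, and Atp2b2 was not. Atp2b2 was 22.2 and 11.8 TPM in sorted LCP D10, 23.7 and 35.9 in the Atoh1 sort and 0.229 and 0.00574 in sorted LCP D0. Both day 10 values lie below both of the Atoh1 sort, with a difference of -0.81 (SE 0.51, adjusted p = 0.347, interval -1.91 to 0.30). Atp2b1 was 62.2 and 71.5 TPM in the Atoh1 sort, 27.1 and 14.2 in sorted LCP D10 and 27.6 and 16.4 in sorted LCP D0. It was lower in sorted LCP D10 than in the Atoh1 sort (-1.71, SE 0.31, adjusted p = 0.00497), but the call was lost without sorted LCP D10 replicate 2 (-1.27, adjusted p = 0.0531). Atp2b2 held 45.1 and 45.3% of the summed TPM of both pumps in sorted LCP D10, 27.5 and 33.4% in the Atoh1 sort and 0.821 and 0.0349% in sorted LCP D0.

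Atp2a3 was 9.97 and 18.5 TPM in the Atoh1 sort and 0.935 and 0.468 in sorted LCP D10, without overlap. It was lower (-3.12, SE 0.49, adjusted p = 0.00217), a ratio of 20.3 between mean TPM, and remained called in each of the 4 fits without 1 of these libraries. In sorted LCP D0 it was 3.00 and 1.38 TPM. The 5 erythroid markers summed to 193 and 281 TPM in the Atoh1 sort and to 0.712 and 0.352 in sorted LCP D10. The 8 immune and platelet markers summed to 18.1 and 4.73 TPM in the Atoh1 sort and to 5.23 and 5.16 in sorted LCP D10. In sorted LCP D10, 7 of the 8 were below 1 TPM in both libraries, with Cd3e and Pf4 listed at 0. In the Atoh1 sort 3 were, with Cd3e listed at 0. The part of both lists in the Atp2a3 difference was not tested.

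In all, 4 of the 8 genes passed the threshold between sorted LCP D10 and the Atoh1 sort (adjusted p below 0.05), S100a1 higher and Calb1, Atp2b1 and Atp2a3 lower. Of 20463 genes tested, 11.8% passed, 4.51% higher and 7.34% lower. The median of the 8 differences was -0.77, against -0.11 over all genes tested. A limma fit on the 4 compared libraries alone called 2, Calb1 and S100a1, with adjusted p = 0.0903 for Atp2b1 and 0.0569 for Atp2a3. Of all genes tested, that fit called 963, against 2424 in the fit on all 18 libraries.

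**Figure D3:**
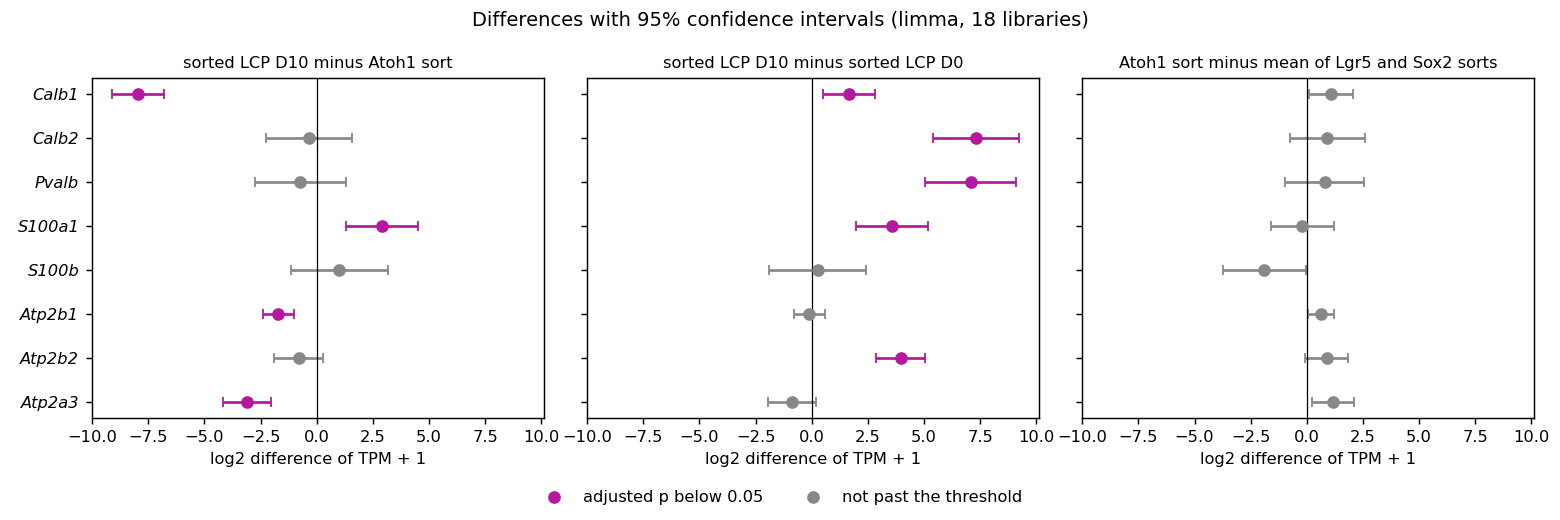
Difference in log2(TPM + 1) with its 95% interval for the 8 genes, in sorted LCP D10 minus the Atoh1 sort, in sorted LCP D10 minus sorted LCP D0, and in the Atoh1 sort minus the Lgr5 and Sox2 sorts averaged. Purple points passed the threshold and grey ones did not. Calb1 lies at -7.95 against the Atoh1 sort, and Calb2 and Pvalb lie at 7.31 and 7.07 against sorted LCP D0.

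Between sorted LCP D0 and sorted LCP D10, 5 of the 8 genes rose and none fell, where 24% of all genes tested passed and 13.3% were higher. Calb2 rose by 7.31 (SE 0.87, adjusted p = 2.3e-04) and Pvalb by 7.07 (SE 0.93, adjusted p = 3.87e-04). Atp2b2 rose by 3.96 (SE 0.51, adjusted p = 3.32e-04) and S100a1 by 3.57 (SE 0.74, adjusted p = 0.00493). Calb1 rose by 1.65 (SE 0.52, adjusted p = 0.0387) to a level far below the native sorts, and this call was lost in each of the 4 fits without 1 library (adjusted p 0.0616 to 0.221) and with a pseudocount of 5 TPM (0.56, adjusted p = 0.317). Atp2b1 (-0.11, adjusted p = 0.853), S100b (0.26, adjusted p = 0.900) and Atp2a3 (-0.87, adjusted p = 0.229) did not pass. The median over the 8 genes was 2.61, against 0.02 over all genes. With Calb2 and Pvalb, which neurons also express, the 10 neuronal markers went from 8.23 and 2.07 TPM in sum at D0 to 337 and 237 at D10, where Prph was listed at 0 and 6 of the 10 were below 1 TPM in both libraries. The 5 proliferation markers went from 275 and 371 TPM to 5.14 and 2.78, and the 8 mesenchymal markers from 1614 and 659 to 62.2 and 47.3. Of these 8, 6 were below 1 TPM in both libraries at D0, with Col3a1 listed at 0. At D10, 6 were also below 1 TPM in both, with Postn listed at 0. The part of these lists in the differences was not tested.

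Sorted LCP D0 cells also differed from the native Lgr5 sort, with 4 of the 8 genes lower and none higher, where 11% of all genes tested passed and 7.11% were lower. They were Calb1 (-8.23, SE 0.52, adjusted p = 8.89e-06), Calb2 (-6.44, SE 0.87, adjusted p = 6.8e-04), Pvalb (-6.79, SE 0.93, adjusted p = 7.12e-04) and Atp2b2 (-3.60, SE 0.51, adjusted p = 8.69e-04). Hair cell markers were at 682 and 1079 TPM in the Lgr5 sort and at 33.3 and 28.3 in sorted LCP D0. Neuronal markers were at 137 and 198 TPM against 8.23 and 2.07, and proliferation markers at 4.94 and 7.27 against 275 and 371. Of the 10 neuronal markers, 3 were below 1 TPM in both libraries of the Lgr5 sort and 7 in those of sorted LCP D0. The part of these lists was not tested. Over all genes, 788 were higher and 1454 lower, or 1109 and 1223 with quantile normalization. The limma fit on the 4 compared libraries alone called none of the 8 genes (adjusted p 0.0817 to 0.0836 for the 4 named here). Of all genes tested, it called 0, so no member could pass there.

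The unsorted cultures give the order in time. Calb2 was 11.3 and 9.60 TPM at D0, 9.51 and 24.2 at D2, 48.2 and 432 at D4 and 232 and 310 at D10. Pvalb was 2.82 and 7.02 TPM at D0, 6.58 and 60.3 at D2, 61.0 and 331 at D4 and 94.9 and 122 at D10. Both were low at D0, and both libraries of D4 and of D10 lay above both of D0. S100a1 was 305 and 525 TPM at D0, 299 and 1024 at D2, 412 and 2359 at D4 and 1946 and 4844 at D10, and only the D10 libraries lay clear of the D0 ones. Replicate 2 was the higher library at D2, D4 and D10 for each of these 3 genes. The hair cell markers summed to 101 and 236 TPM at D2, 260 and 852 at D4 and 598 and 1207 at D10, against 67.0 and 61.6 at D0, so replicate 2 was the higher one from D2 on. From D0 to D10, neuronal markers went from 11.8 and 10.1 TPM to 71.5 and 215. Of the 10 neuronal markers, 7 were below 1 TPM in both libraries at D0 and 5 at D10, where Stmn2 was listed at 0. Proliferation markers went from 286 and 367 TPM to 3.71 and 3.09 and mesenchymal markers from 1014 and 1534 to 509 and 447. The part of these lists in the time course was not tested.

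Atp2b2 was 0.0492 and 0.0921 TPM at D0, 0.570 and 1.40 at D2, 1.69 and 5.65 at D4 and 3.99 and 9.28 at D10, and each step but D4 to D10 lay clear of the one before. Calb1 was 0.0792 and 0.208 TPM at D0 and stayed under 1 TPM in every library up to D4, and at D10 it was 0.388 and 3.27. Atp2a3 was 3.50 and 2.55 TPM at D0, 1.16 and 0.585 at D2, 0.353 and 0.861 at D4 and 0.272 and 0.695 at D10. Its later libraries all lay below those of D0, but the difference at D10 did not pass (-1.44, SE 0.49, adjusted p = 0.109). Atp2b1 ranged from 23.1 to 40.3 TPM and S100b from 0.646 to 20.5 over the 8 unsorted libraries.

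Against LCP D0, none of the 8 genes passed at D2, where 0.0489% of all genes passed. Without adjustment, Atp2a3 (-1.11, SE 0.49) was the 1 gene of the 8 below 0.05 by limma, among 921 (4.5%) of all genes tested. At D4, 2 passed, both higher, where 3.39% of all genes passed and 1.09% were higher: Pvalb (4.70, SE 0.93, adjusted p = 0.0169) and Calb2 (3.67, SE 0.87, adjusted p = 0.0414). Both calls were lost without LCP D0 replicate 1, without LCP D0 replicate 2 or without LCP D4 replicate 2 (adjusted p 0.0642 to 0.272). Atp2b2 missed the threshold (1.98, SE 0.51, adjusted p = 0.0569) and passed with the replicate number as a block (adjusted p = 0.0332). At D10, 4 passed, all higher, where 7.39% of all genes passed and 3.05% were higher. They were Calb2 (4.56, SE 0.87, adjusted p = 0.00902), Pvalb (4.29, SE 0.93, adjusted p = 0.016), Atp2b2 (2.74, SE 0.51, adjusted p = 0.00734) and S100a1 (2.94, SE 0.74, adjusted p = 0.0337). Only the replicates 2 of D0 and D10 share a sequencing date, and between them the differences were 4.87, 3.94, 3.23 and 3.20 in that order. Each of the 4 calls was lost without LCP D0 replicate 1 (adjusted p 0.0586 to 0.204) and without LCP D10 replicate 2 (0.0565 to 0.207), and those of Calb2, Pvalb and S100a1 also without LCP D0 replicate 2 (0.0522 to 0.088). The limma fit on the 4 compared libraries alone called none at D4 (adjusted p = 0.282 for Pvalb and 0.381 for Calb2). It also called none at D10 (limma adjusted p 0.126 to 0.222 for the same 4 genes). Of all genes tested, it called 0 at D4 and 0 at D10, so no member could pass there.

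At day 10, sorted and unsorted LCP cells differed in none of the 8 genes past the threshold, where 6.22% of all genes passed. Without adjustment, S100b (2.23 higher in sorted cells, SE 0.99) and Atp2b2 (1.27 higher, SE 0.51) were below 0.05 by limma. So were 4847 (23.7%) of all genes tested. S100b was 0.646 and 9.63 TPM in unsorted LCP D10, both below the sorted libraries. Over all genes, 877 were higher and 396 lower in sorted cells, or 785 and 766 with quantile normalization.

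Within the native tissue, none of the 8 genes passed between the Atoh1 sort and the average of both supporting cell sorts, where 0.821% of all genes passed. Without adjustment, 4 were below 0.05 by limma, as were 2448 (12%) of all genes. Calb1 (1.08), Atp2b1 (0.63) and Atp2a3 (1.15) were higher and S100b (-1.89) lower in the Atoh1 sort. Both Atoh1 libraries lay above all 4 others for Calb1, Pvalb, Atp2b1 and Atp2b2. Between the Lgr5 and Sox2 sorts none passed, where 0.557% of all genes passed. None of the 8 was below 0.05 by limma without adjustment, against 1340 (6.55%) of all genes.

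The rise from D0 to D10 in sorted LCP cells was compared with the step from the supporting cell sorts to the Atoh1 sort, by the test of the difference between both. It was larger in culture for 4 of the 8 genes and smaller for none past the threshold, where 7.46% of all genes passed and 4.42% were higher. The 4 were Calb2 (6.39, SE 1.15, adjusted p = 0.00877), Pvalb (6.28, SE 1.23, adjusted p = 0.0122), S100a1 (3.77, SE 0.98, adjusted p = 0.0394) and Atp2b2 (3.07, SE 0.67, adjusted p = 0.0195). The S100a1 call was lost in each of the 10 fits without 1 library (adjusted p 0.0605 to 0.112). The Pvalb call was lost without Atoh1 sort replicate 1 (0.0506), and that of Atp2b2 without this library (0.0885), sorted LCP D0 replicate 2 (0.0606) or sorted LCP D10 replicate 1 (0.0964). The supporting cell sorts, which held hair cell markers, held 161 to 387 TPM of Calb2, 107 to 268 of Pvalb, 676 to 1408 of S100a1 and 10.4 to 22.2 of Atp2b2 over their 4 libraries. Over all genes, 905 were higher and 622 lower, or 832 and 886 with quantile normalization.

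The 5 lists of other calcium genes, 78 in all, put the 8 in context, and 64 of them passed the filter on low values. Against the Atoh1 sort, other EF-hand proteins had 3 of 22 tested genes higher and 2 lower in sorted LCP D10. Over all genes tested, 4.51% were higher and 7.34% lower in this comparison. Cabp2, a regulator of hair cell calcium channels, was 4251 and 3361 TPM against 172 and 146 (4.56, adjusted p = 0.0143). Cabp7 was 24.8 and 30.0 TPM against 0.660 and 2.21 (3.62, adjusted p = 0.00103). Necab2, a neuronal calcium-binding protein, was listed at 0 in both against 25.5 and 18.5 TPM (-4.51, adjusted p = 1.07e-05). Ocm, oncomodulin, the parvalbumin of outer hair cells, was 17.0 and 13.2 TPM against 79.8 and 423 (-3.53, adjusted p = 0.00666), and was singled out here after its values were seen. The list's median was -0.19, against -0.11 over all genes.

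Other S100 genes had 2 of 10 higher and 1 lower against the Atoh1 sort, with a median of 0.21. Over all genes the shares were 4.51% higher and 7.34% lower. S100a13 (3.97, adjusted p = 0.0106) and S100a16 (2.60, adjusted p = 0.0259) were higher, and S100g, calbindin D9k, was lower (-2.86, adjusted p = 0.0026). S100a11, the most abundant one not past the threshold, differed by 0.56 (adjusted p = 0.644). S100a13 is the neighbour whose GENCODE start lies 43 bp from the GENCODE start of S100a1, beside the capitals of the window printed above. It was 178 and 151 TPM in the Atoh1 sort, 43.9 and 20.5 in sorted LCP D0 and 2660 and 2517 in sorted LCP D10. Over the 9 group means of log2(TPM + 1) S100a1 and S100a13 correlated at r = 0.96, a description over points that share their libraries. The libraries were not made with a kit stated to keep strand, and the exons of the pair do not overlap. The next S100 gene along, S100a14, differed by 0.46 (adjusted p = 0.733) at low levels. It was 2.36 and 2.80 TPM in the Atoh1 sort and 4.27 and 3.56 in sorted LCP D10. Against sorted LCP D0 it differed by 1.77 (limma, adjusted p = 0.0851), and by 3.54 with a pseudocount of 0.1 TPM (adjusted p = 0.0363). S100a16, higher against the Atoh1 sort, is the S100 gene after that. The pair of S100a1 and S100a13 was also looked at after its values were seen.

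Plasma membrane extrusion genes had 1 of 8 higher and 3 lower against the Atoh1 sort, with a median of 0.18. The shares over all genes, for each list of this comparison, were 4.51% higher and 7.34% lower. Bsg, basigin, which like neuroplastin associates with PMCA pumps, was 1997 and 2195 TPM against 591 and 576 (1.84, adjusted p = 0.0437). The calcium exchanger genes Slc24a3 (-4.10, adjusted p = 0.0358) and Slc8a1 (-1.88, adjusted p = 0.0109) were lower, and Nptn, neuroplastin, did not pass (0.57, adjusted p = 0.194). Store genes of the endoplasmic reticulum and Golgi had 0 of 15 higher and 1 lower, with a median of -0.43. Itpr3, an inositol trisphosphate receptor, was 1.35 and 1.22 TPM against 25.3 and 19.0 (-3.33, adjusted p = 5.82e-04), while Calr, calreticulin, differed by 0.24 (adjusted p = 0.698). Mitochondrial uptake genes had 1 of 9 higher and 1 lower, with a median of 0.41. Mcub, an inhibitory subunit of the uniporter, was 27.6 and 17.3 TPM against 0.337 and 0.431 (4.05, adjusted p = 2.37e-05), Letm1 was lower (-1.54, adjusted p = 0.00307) and Smdt1 differed by -0.43 (adjusted p = 0.326). Of these 13 named calls, Ocm included, 6 held in every fit without 1 library (Cabp7, Necab2, S100g, Itpr3, Mcub and Letm1). The fit on the compared libraries alone lost Cabp7, S100g, Ocm, S100a16 and Slc8a1 (adjusted p 0.0507 to 0.118), and testing without a filter lost Slc24a3 and Bsg.

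**Figure D4:**
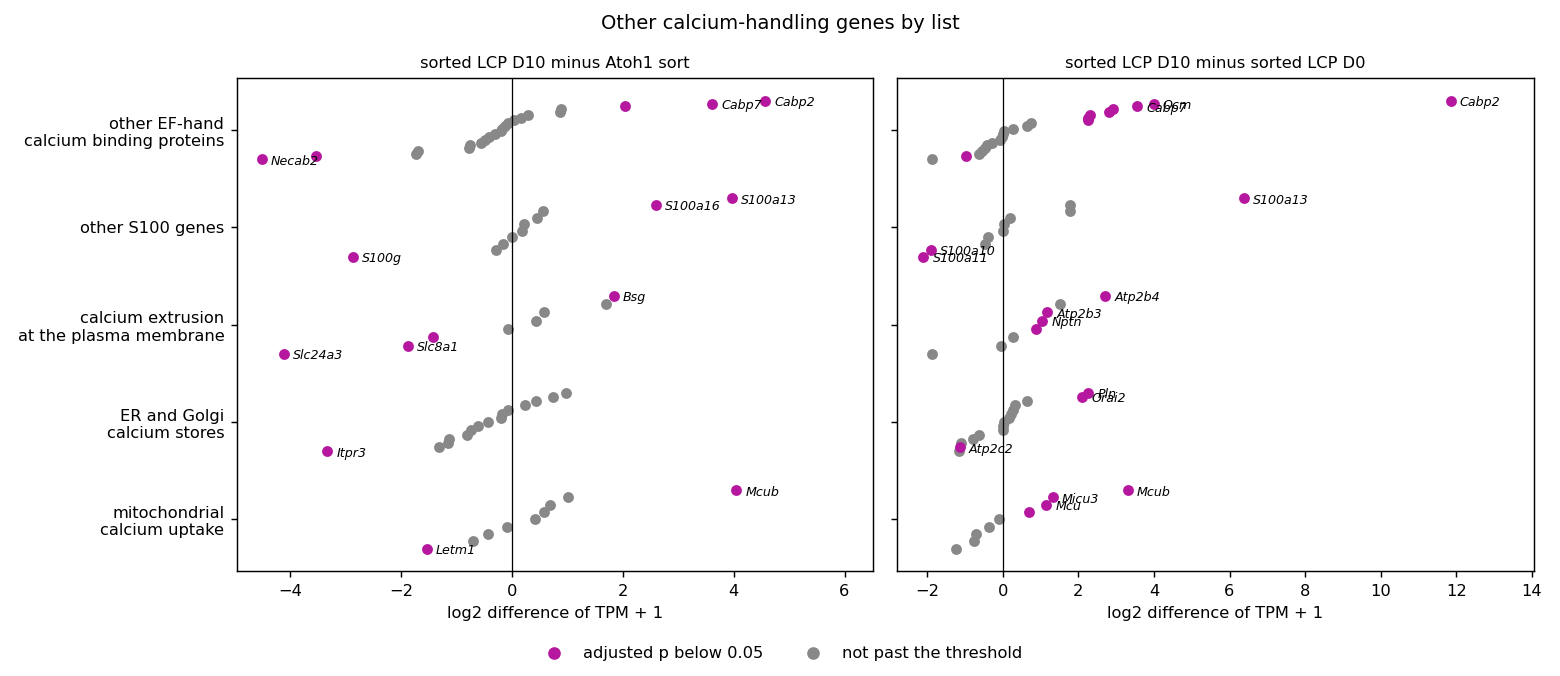
Difference in log2(TPM + 1) of each tested gene of the 5 calcium lists, sorted LCP D10 against the Atoh1 sort and against sorted LCP D0, with purple points for genes past the threshold and grey for the rest, spread within a list by rank. The list medians run from -0.43 to 0.41 against the Atoh1 sort and from -0.11 to 0.96 against sorted LCP D0.

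Against sorted LCP D0, 8 of 22 EF-hand genes rose and 1 fell, with a median of 0.15. Of all genes tested, 24% passed and 13.3% were higher in this comparison. Cabp2 rose by 11.85 (adjusted p = 5.09e-05) from 0.0523 TPM in 1 library and a listed 0 in the other. Ocm, listed at 0 in both, rose by 4.00 (adjusted p = 0.00171) and Cabp7 by 3.56 (adjusted p = 6.21e-04), while Calm3 did not pass (0.63, adjusted p = 0.17). Extrusion genes had 4 of 8 higher and 0 lower, with a median of 0.96. Atp2b4, which encodes PMCA4, rose by 2.71 (adjusted p = 0.0132), Atp2b3, PMCA3, by 1.18 (adjusted p = 0.0197) and Nptn by 1.04 (adjusted p = 0.0142). Bsg missed the threshold (1.51, adjusted p = 0.0595) and passed with the replicate block (adjusted p = 0.0486), as did Calm3 (0.0461).

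Of the other S100 genes, 1 of 10 rose and 2 fell from sorted LCP D0, with a median of 0.01. The shares over all genes, for each list of this comparison, were 24% passing and 13.3% higher. S100a13 rose by 6.38 (adjusted p = 3.91e-04), S100a11 fell by 2.10 (adjusted p = 0.0387), S100a10 fell by 1.90 (adjusted p = 0.0169) and S100a6 did not pass (-0.48, adjusted p = 0.829). Store genes had 2 of 15 higher and 1 lower, with a median of 0.04. Pln, the SERCA regulator phospholamban, rose by 2.26 (adjusted p = 0.0021), Orai2, a store-operated channel subunit, by 2.10 (adjusted p = 0.0165), and the Golgi pump gene Atp2c2 fell by 1.14 (adjusted p = 0.0435), while Calr did not pass (0.04, adjusted p = 0.975). Mitochondrial uptake genes had 4 of 9 higher and 0 lower, although their median was -0.11. They include Mcub (3.30, adjusted p = 9.09e-05), Micu3 (1.32, adjusted p = 0.00744) and Mcu, the pore of the uniporter (1.15, adjusted p = 0.0211), and Smdt1 did not pass (-0.11, adjusted p = 0.815). Of the 15 named calls, 7 held in every fit without 1 library (Ocm, Cabp2, Cabp7, S100a13, Pln, Mcub and Micu3). The fit on the compared libraries alone lost Pln, Micu3, S100a10, S100a11, Atp2b3, Atp2b4, Nptn, Atp2c2, Orai2 and Mcu (adjusted p 0.0522 to 0.196), and testing without a filter lost S100a11 and Atp2c2. The comparisons with the Atoh1 sort and with sorted LCP D0 share the sorted LCP D10 libraries.

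The order of the 9 groups, by mean log2(TPM + 1), differed between the genes. Calb1 ran Atoh1, Sox2 and Lgr5 sort and then sorted LCP D10, each pair of neighbours without overlap. Sorted LCP D10 was at position 2 for Calb2 and position 3 for Pvalb, S100b and Atp2b2, and in each it overlapped the native sort above it. For S100a1 it was at position 1 and did not overlap LCP D10 at position 2. For Atp2b1 it was at position 9, overlapping sorted LCP D0, and for Atp2a3 at position 7, overlapping LCP D2 and LCP D4.

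Over the 9 group means, Calb2 and Pvalb correlated at r = 0.98, and Atp2b2 correlated at 0.93 with Calb2 and 0.92 with Pvalb. The 3 other genes most like each member in this measure, among those with a standard symbol and a group mean of at least 10 TPM, were as follows. For Calb1 they were Strip2 (r = 0.999), Gnmt (0.998) and Laptm5 (0.998), for Calb2 Smpx (0.992), Nefm (0.992) and the hair cell transcription factor gene Pou4f3 (0.990). For Pvalb they were Dlk2 (0.996), Ccer2 (0.993) and Tmem255b (0.992), for S100a1 Popdc3 (0.984), Spaca9 (0.982) and Ftl1 (0.971). For S100b they were Snord100 (0.929), Mir5117 (0.911) and Nr2f1 (0.906), for Atp2b1 Ubqln4 (0.986), Cpped1 (0.981) and Kif13a (0.975). For Atp2b2 they were Gdap1l1 (0.997), Ttc34 (0.995) and Casz1 (0.993), for Atp2a3 Slc25a3 (0.974), Suclg1 (0.968) and Aldh9a1 (0.967). With 9 points that fall into native and culture sets, these values describe likeness only.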

How the data were processed

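RNA was sequenced as single-end reads from SMARTer cDNA, per the labels' protocols. The authors deposited 1 table of TPM per library (18 libraries). The submitters' processing notes name STAR, Salmon and the mm10 build without roles. TPM keeps no read depth, so depth per library is unknown and no counting interval is given. Gene names were matched for 47224 of 47729 IDs through GENCODE M21. The 8 genes and all lists were chosen with earlier results of these data known.

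Levels were tested as log2(TPM + 1) with limma 3.58.1 (R 4.3.3), a mean for each of the 9 groups, an empirical Bayes trend and all 18 libraries sharing 1 spread, on the 20463 genes that reached 1 TPM in 2 or more libraries. P-values were adjusted by Benjamini-Hochberg over these genes, with a threshold of 0.05. The fit was tested on simulated data. Named list genes are, per list and comparison, the called genes of largest difference, up to 3, and the most abundant uncalled gene; 1 gene that this rule names is not reported here.

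Replicate numbers coincide with sequencing dates in the labels for all groups except LCP D0, D2 and D4. Over the 36 pairs of groups, deviations of same-numbered libraries correlated at -0.0187 to 0.483 (median 0.103). Alternatives were the pseudocount (0.1 or 5 TPM), the filter (5 TPM or none), quantile normalization, a replicate block, a date term, the compared groups alone and leaving out each library.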

Additional observations from a re-analysis of the deposited data

Results flagged for a closer look

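The change from sorted LCP D0 to D10 was set against the step from the Lgr5 and Sox2 sorts to the Atoh1 sort. They differed past the threshold for 4 genes, by limma's test of the difference itself on the log2(TPM + 1) scale. The difference was 6.39 for Calb2 (SE 1.15), 6.28 for Pvalb (SE 1.23), 3.77 for S100a1 (SE 0.98) and 3.07 for Atp2b2 (SE 0.67). In culture Calb2 rose by 7.31, and between the native sorts it differed by 0.92 (SE 0.76). Pvalb rose by 7.07 in culture and differed by 0.79 (SE 0.80) between native sorts. S100a1 rose by 3.57 in culture and differed by -0.21 (SE 0.64) between native sorts. Atp2b2 rose by 3.96 in culture and differed by 0.89 (SE 0.44) between native sorts. The calls of Pvalb, S100a1 and Atp2b2 did not hold in every fit without 1 library. The Lgr5 sort held 682 and 1079 TPM of hair cell markers and the Sox2 sort 986 and 1150. The part of these markers in the native step was not tested.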

How the results depend on the processing

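Of 1024 values of the 8 genes under the alternatives, over 80 results, 925 kept their direction and their side of the threshold, 63 lost the call, 9 gained one and 27 turned direction. Without the fits that leave out a library the numbers were 640, 607, 23, 5 and 5. The number of the 8 genes past the threshold for LCP D4 against LCP D0, 2 in the text, was 1 with a pseudocount of 0.1 TPM and 1 with no filter. With that pseudocount Calb2 (adjusted p = 0.0648) and Pvalb (0.052) both lost the call and Atp2b2 gained it (0.0099), and with no filter Calb2 lost it (0.0888). The fit of the compared groups alone called 0 there and 2 for sorted LCP D10 against the Atoh1 sort. It called 0 for LCP D10 against LCP D0 and 0 for sorted LCP D0 against the Lgr5 sort. Over all genes this fit called 0, 963, 0 and 0 in the same order. That fit has fewer samples; otherwise the cause was not tested. With the replicate number as a block, LCP D4 against LCP D0 gave 3 and Bsg and Calm3 passed against sorted LCP D0; the block changed no other call of a gene named in the text.

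Atp2b2 lost its call with a pseudocount of 5 TPM at D10 against LCP D0 (adjusted p = 0.0581) and in the culture difference minus the native one (0.0868), and S100a1 lost both without a filter (0.0754 and 0.065). Calb1 against sorted LCP D0 lost its call without a filter (0.0581), with quantile normalization (0.0853) and in the fit of the compared groups alone (0.0612). Atp2b3 against sorted LCP D0 lost its call with a pseudocount of 5 TPM (0.0541) and with quantile normalization (0.114), Atp2c2 with that pseudocount (0.0548), and Atp2a3 gained one with quantile normalization in the culture difference minus the native one (0.0373).

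Leaving out 1 library at a time gave 2 to 3 of the 8 genes for sorted LCP D10 against the Atoh1 sort, 4 to 4 against sorted LCP D0, 0 to 3 for LCP D4 and 0 to 5 for LCP D10 against LCP D0. It gave 0 to 1 for sorted against unsorted LCP D10 and 1 to 4 for the culture difference minus the native difference. The lone library of an arm was then assumed to vary like the other groups.

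Directions that turned were all of differences not past the threshold. With a pseudocount of 5 TPM, S100b at D2 against D0 became 0.019 and Calb1 in the culture difference minus the native one -0.51. With quantile normalization, S100b became 0.10 at D2 and 0.068 at D4 against D0, Smdt1 against sorted LCP D0 0.060, and Atp2a3 in sorted against unsorted LCP D10 -0.12. Leaving out 1 library turned these against the Atoh1 sort: Calb2 (-1.07 to 0.36), S100a11 (-0.17 to 1.30) and Calr (-0.14 to 0.62). Against sorted LCP D0 it turned S100b (-0.29 to 0.80), Atp2b1 (-0.55 to 0.33), Calr (-0.070 to 0.14) and Smdt1 (-0.40 to 0.18). At D2 against D0 it turned Calb1 (-0.039 to 0.12), Calb2 (-0.12 to 1.14), S100a1 (-0.42 to 1.35), S100b (-1.39 to 1.26) and Atp2b1 (-0.11 to 0.22), and S100b also at D4 (-1.02 to 0.84) and D10 (-2.45 to 0.24). It also turned Calb1 (-0.29 to 1.33), Atp2b1 (-0.77 to 0.11) and Atp2a3 (-0.0079 to 0.41) in sorted against unsorted LCP D10, Pvalb (-1.10 to 0.22) and Atp2a3 (-1.45 to 0.00060) in the Lgr5 against the Sox2 sort, and Calb1 (-0.058 to 1.21) in the culture difference minus the native one.

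Over all genes, the number past the threshold varied more than 1.5 times in each comparison across the alternatives that keep every library. It was 2424 (963 to 3679) against the Atoh1 sort, 4911 (2032 to 6252) against sorted LCP D0, and 10 (0 to 22), 693 (0 to 1148) and 1512 (0 to 2009) at D2, D4 and D10 against LCP D0. It was 1273 (0 to 2674) for sorted against unsorted LCP D10, 2242 (0 to 2932) for sorted LCP D0 against the Lgr5 sort, 168 (10 to 352) for the Atoh1 sort, 114 (0 to 232) for the Lgr5 against the Sox2 sort and 1527 (1119 to 2369) for the culture difference minus the native one. Leaving out 1 library gave, in the same order, 941 to 1226, 2440 to 4101, 2 to 14, 183 to 629, 479 to 1392, 56 to 2461, 1113 to 2154, 73 to 194, 45 to 285 and 493 to 1606, so the shares of all genes beside the members' counts move as much. Quantile normalization moved the median of all genes from -0.09 to 0.03 for sorted LCP D0 against the Lgr5 sort and from 0.02 to -0.11 for the culture difference minus the native one. TPM gives no read depth, so the counting error of low levels such as those of Calb1 and Atp2b2 at D0 is unknown.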
